A study of Saccharomyces cerevisiae with 44 samples.

Results

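Reads on the strand opposite to a gene were followed over tandem genes of Saccharomyces cerevisiae, strain W303, in growing, arrested and quiescent cells. A tandem gene is here a gene with a standard name whose next named neighbour on its 3′ side lies on the same strand, with a gap of 0 to 1000 bp. The rule found 1942 genes among 5140 with a standard name and 6600 in all. It used positions and strands, and no measured value. CAF20, with a gap of 998 bp to HEM4, was the member just inside the limit, and YRR1, with a gap of 1001 bp to PNS1, was the gene just outside it. For comparison, 2346 convergent genes were taken by the same rule with the next named neighbour on the other strand.

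Antisense RNA over a tandem gene is often started in the gap at its 3′ end, where the promoter of the next gene lies, and runs back through the gene. In budding yeast many such RNAs are cut short by the Nrd1-Nab3-Sen1 complex, which binds short motifs in new RNA and ends transcription, and are then degraded by the nuclear exosome. Rrp6 is a nuclease of that nuclear exosome. The catalogues of non-coding RNA name transcripts by what reveals them: NUTs (Nrd1-unterminated transcripts) appear when Nrd1 is lost, CUTs (cryptic unstable transcripts) when the nuclear exosome is impaired, and XUTs when the cytoplasmic nuclease Xrn1 is lost. SUTs (stable unannotated transcripts) are seen in wild-type cells. At some genes antisense transcription is known to repress the sense gene, among them PHO84 and IME4.

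The study had 44 samples in 22 groups of 2 replicates, with steady-state RNA read by RNA-seq and nascent RNA by 4tU-seq, which takes RNA labelled with 4-thiouracil. WT, rrp6-delta (RRP6 deleted), Nab3-AID (Nab3 carrying a degron that auxin acts on) and OsTIR-AID (the control of the auxin samples) cells were compared. Quiescent cells were separated on a gradient from saturated cultures in YEP with 2% glucose, at day 7 or day 8. G1 cells were held in early log phase by alpha factor at 5 µg/ml, with a repeat dose at 90 minutes where the arrest needed it. The Nab3-AID and the OsTIR-AID cells were all quiescent at day 7 and all received IAA, an auxin, at 1 mg/ml, so auxin and the degron system are shared by both groups. The rrp6-delta and WT quiescent cells compared with each other were of day 8. The time course took rrp6-delta and WT steady-state RNA in G1, 2 h before the diauxic shift (the exhaustion of glucose), and 2 h, 24 h and 48 h after it. A first WT set of G1 cells and day 7 quiescent cells, nascent and steady-state, was made with another library kit (Ovation SoLo in place of Universal Plus), and no fit crossed the kits. The design speaks of biological replicates, and replicates carry different strain numbers. In bulk RNA, a different number of cells with a transcript and a different amount of it per cell cannot be told apart.

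The members lay on both strands, 989 on the plus and 953 on the minus strand, over all 16 nuclear chromosomes, with 1 member on the mitochondrial chromosome. The median gap to the neighbour was 379 bp (quartiles 277 and 517 bp), against 219 bp for convergent genes, and the median coding length was 1314.5 bp. In 772 cases the downstream neighbour was itself a member. Upstream, 984 had their named neighbour on the other strand and 958 on the same strand. An annotated non-coding transcript on the other strand covered at least 50% of the gene in 1007 members (51.9%), in 482 convergent genes (20.5%) and in 34.3% of all named genes. NUTs did so over 792 members, CUTs of any catalogue over 793, XUTs over 522, SUTs over 284 and the SRAT class of the deposited annotation over 137. The 5′ end of the covering transcript lay in the gap to the neighbour in 613 members, beyond the gap in 243, and inside or upstream of the gene in 151. Over convergent genes these numbers were 183, 40 and 259. A reading frame of any name overlapped 199 members on the other strand, and there antisense reads cannot be told apart from sense reads of that frame.

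Libraries held 1337088 to 11939647 sense reads on S. cerevisiae genes and 14634 to 725496 antisense reads on the members. The RRP6 gene had 3.18 to 20.1 sense CPM (counts per 1e+06 reads) in the 14 rrp6-delta libraries and 79.9 to 275 in the other 30. The NAB3 RNA is no check of Nab3-AID, since the degron acts on the protein. FUS1, a gene induced by mating pheromone, was at 9.91 to 10.9 on the log2(CPM + 1) scale in the 8 G1 libraries and at 2.51 to 5.13 in the other 36. SPG1, a stationary-phase gene, was at 8.72 to 14.4 in the 20 quiescent libraries on the same scale. SPG1 differed between the auxin groups. In steady-state RNA it was at 10.0814 and 10.3974 in Nab3-AID against 14.4264 and 14.3879 in OsTIR-AID cells. In nascent RNA it was at 8.71587 and 9.01857 against 12.3075 and 12.57. Whether Nab3-AID and OsTIR-AID cells were equally quiescent was not tested. Reads assigned to the wrong strand, estimated from the most highly expressed genes, came to 0 to 0.0499 per 100 sense reads in the Ovation libraries and 0.257 to 1.07 in the Universal Plus libraries. Antisense CPM below are antisense reads per 1e+06 sense reads of the same library after TMM scaling of the sense reads. They are therefore levels relative to the sense RNA of the same library. The tables also hold Kluyveromyces lactis genes; how much K. lactis material each sample received is not given in the sources used here. Scaling to the K. lactis reads moved the median antisense difference of all genes tested in every comparison, for instance from 2.13 to 3.81 (log2) for Nab3-AID in steady-state RNA and from 1.69 to -2.76 for nascent RNA of quiescent against G1 cells. Counts that turn direction under it are given with that scaling beside them.

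Antisense reads over the members, as a share of their own sense reads, were lowest in WT G1 cells and highest after Nab3 depletion. In steady-state RNA there were 22.8 and 24.7 antisense reads per 100 sense reads in the Nab3-AID libraries and 2.77 and 2.76 in the OsTIR-AID libraries. In nascent RNA the values were 29.9 and 31.7 against 4.26 and 4.68. Both pairs of groups lay far apart, with a fold of 8.57 in steady-state and 6.90 in nascent RNA. Quiescent rrp6-delta cells had 8.32 and 8.39 in steady-state RNA, against 2.95 and 2.99 in WT, a fold of 2.81. Their nascent RNA had 6.14 and 6.33 against 4.69 and 5.42, a fold of 1.24. In G1 the rrp6-delta libraries had 4.87 and 4.93 and the WT libraries 1.09 and 1.08, a fold of 4.51. The groups did not overlap in any of these comparisons.

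**Figure D1:**
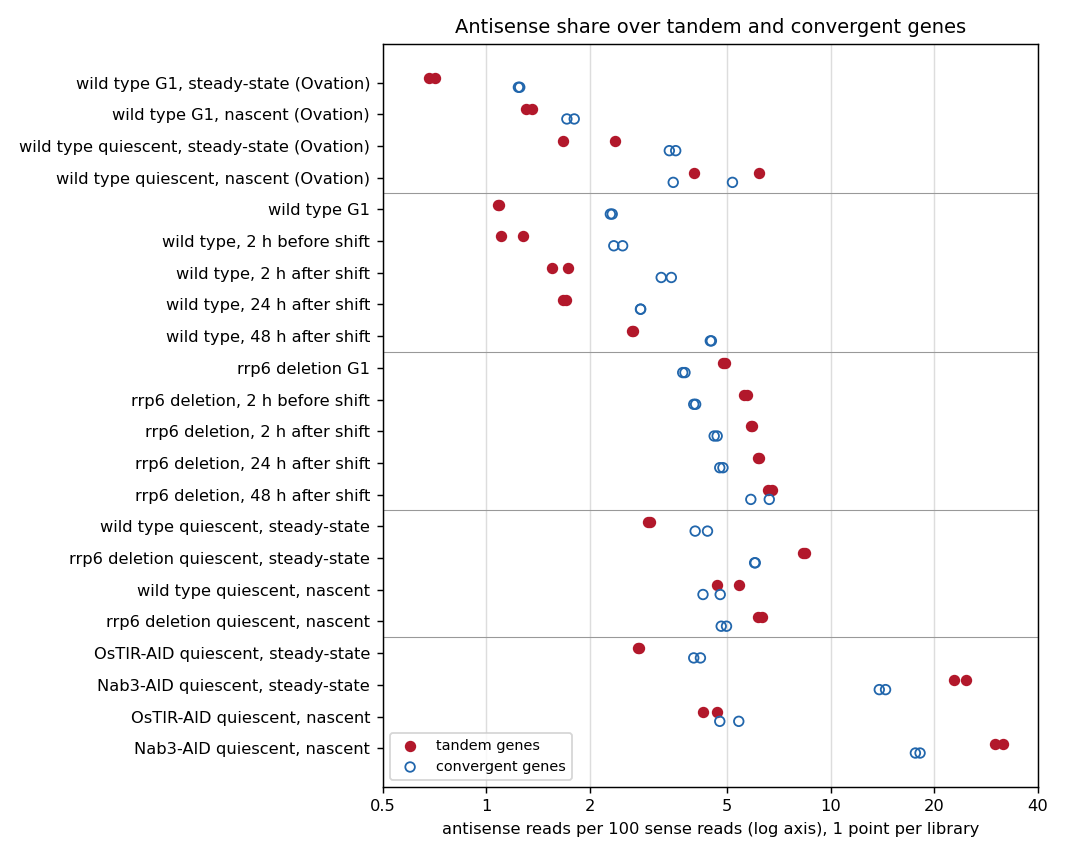
Antisense reads per 100 sense reads (log axis) in each library of the 22 groups, summed over the 1942 tandem genes (filled) and over the 2346 convergent genes (open). The 2 Nab3-AID groups stand highest, at 22.8 to 31.7 over tandem genes, and all rrp6-delta steady-state groups lie above their WT groups.

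Around the diauxic shift the WT steady-state libraries held 1.10 and 1.27 antisense reads per 100 sense reads at 2 h ahead of the shift, 1.56 and 1.73 at 2 h past it, 1.70 and 1.67 at 24 h, and 2.67 and 2.65 at 48 h. The 2 h and 24 h values overlapped, and the other neighbouring times did not. In rrp6-delta cells the share moved little, from 5.70 and 5.58 before the shift to 6.75 and 6.57 at 48 h. The rrp6-delta over WT fold was accordingly 4.75 before the shift, 3.59 at 2 h, 3.66 at 24 h and 2.50 at 48 h. In the Ovation set, quiescent WT cells had 2.37 and 1.67 in steady-state and 6.19 and 4.01 in nascent RNA, while G1 cells had 0.680 and 0.708 in steady-state and 1.31 and 1.36 in nascent RNA. In that set the quiescent replicates lay further apart than the G1 replicates in both RNA fractions. With 2 libraries against 2, an exact two-sided permutation test cannot go below p = 0.333, and that value was reached in 15 of 16 comparisons (lowest adjusted p = 0.356), the exception being 24 h against 2 h.

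Convergent genes were summed in the same way. Over convergent genes the Nab3-AID share was 13.8 and 14.4 per 100 sense reads in steady-state RNA against 4.00 and 4.18 in the control. Antisense reads over tandem genes divided by those over convergent genes went up 1.94-fold with Nab3 depletion in steady-state RNA and 1.74-fold in nascent RNA. With the loss of Rrp6 this ratio was 2.75-fold higher in G1, 2.82-fold before the shift, 2.54-fold 2 h after it, 1.86-fold at 24 h and 1.71-fold at 48 h. In quiescence it was 1.81-fold higher in steady-state and 1.15-fold in nascent RNA. The libraries of the groups did not overlap in these ratios, and each exact permutation p was 0.333, the smallest possible. For quiescent against G1 cells in steady-state RNA the ratio was 0.565 ± 0.101 against 0.515 ± 0.021 (SD, n = 2 each), the groups overlapped, and the exact permutation p was 1.

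Single genes were tested with edgeR's quasi-likelihood test, adjusted over all genes tested, and a member was called higher or lower at an adjusted p below 0.05. In steady-state RNA, 1408 of the 1866 members tested had higher antisense levels in Nab3-AID than in OsTIR-AID cells and 62 had lower ones, where 63.5% of all genes tested were higher and 5.9% lower. In nascent RNA 1598 of 1866 were higher and 70 lower, against 76.6% and 7.11% of all genes. The members' share called higher was thus 75.5% in steady-state and 85.6% in nascent RNA. The median antisense difference of the members tested was 3.11 (log2) in steady-state RNA, against 2.13 for all genes tested. It was 2.58 with members that had no reads in a group set at their bound. No such bounds were set for all genes or for convergent genes. Of 2153 convergent genes tested, 1349 were higher, with a median of 1.87. Members that passed the filter on low counts only through the group where they are high had to differ, so these counts describe the members tested. The filter left out 76 members here, 544 in the Ovation set, 87 in the quiescent rrp6-delta set and 67 in the time course.

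**Figure D2:**
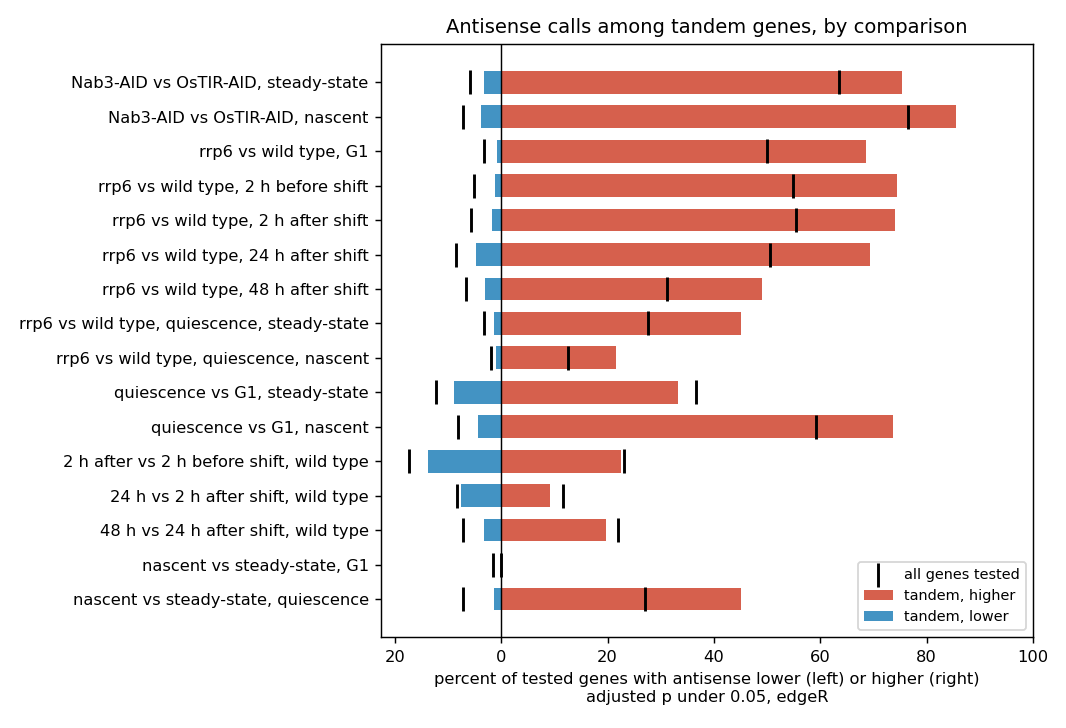
Percent of the tandem genes tested with higher or lower antisense levels in each of 16 comparisons (adjusted p below 0.05), with black ticks for the percent of all genes tested. Shares higher reach 85.6% for Nab3-AID in nascent RNA and 74.4% for rrp6-delta before the shift. Under K. lactis scaling the split turns for quiescence against G1 in nascent RNA, for nascent against steady-state RNA and for the WT time steps.

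BFA1 shows the size of the change after Nab3 depletion. It encodes a part of the Bfa1-Bub2 GTPase-activating protein of the spindle position checkpoint and lies on chromosome X (534027 to 535751, plus strand), 304 bp before KCH1. CUTs, NUTs and XUTs that begin in the gap cover it whole. In steady-state RNA the Nab3-AID libraries held 274 and 214 BFA1 antisense reads (81.6 and 88.8 CPM) and both OsTIR-AID libraries none. Antisense reads were thus at least 50.4-fold higher, taking 3 reads over the group as the floor (adjusted p = 4.1e-19), and BFA1 sense levels, 3.87 and 4.57 against 5.57 and 12.4 CPM, did not pass the test (log2 difference -1.10, adjusted p = 0.065). The other 9 of the 10 largest rises also had no antisense read in either control library, and their sense levels went different ways. The OsTIR-AID libraries were less deep, with 1356331 and 1337088 sense reads against 2759692 and 2081776 in Nab3-AID. The folds allow for depth, and the raw reads do not.

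RPL36B, a gene of the large ribosomal subunit, had 272 and 248 antisense reads against 0 and 0 (at least 53.7-fold, adjusted p = 9.3e-19), with a sense difference of 0.01. The frame YPL250W-A lies on its other strand. KIP2, a kinesin motor of cytoplasmic microtubules, had 247 and 185 antisense reads against 0 and 0 (at least 44.6-fold), and its sense level was higher as well (log2 difference 2.83, adjusted p = 2.6e-07). RCK1, a protein kinase of the oxidative stress response, had 238 and 221 against 0 and 0 (at least 47.4-fold) with a sense difference of 3.17. In NSL1, a kinetochore subunit, 250 and 207 antisense reads stood against 0 and 0 (at least 47.2-fold), while sense CPM were 15.2 and 12.45 against 25.6 and 27.0 (log2 difference -0.91, adjusted p = 0.00672). MIR1, the mitochondrial phosphate carrier, had 175 and 187 against 0 and 0 (at least 37.4-fold) and a lower sense level (-1.24). So among these genes with comparable antisense changes, sense levels were higher in some and lower in others. MSC6, MME1, RAD53 and HOF1 completed the largest rises, at least 45.8-fold, 43.6-fold, 41.6-fold and 37.9-fold higher.

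The members with lower antisense levels after Nab3 depletion numbered 62 in steady-state and 70 in nascent RNA, and under K. lactis scaling 6 in each. SVL3, which lies on chromosome XVI (488887 to 491364, minus strand), 679 bp before SRL4, had antisense CPM of 6.25 and 4.15 in Nab3-AID against 53.5 and 72.0 in OsTIR-AID cells (log2 difference -3.54 ± 0.32 SE, adjusted p = 6.0e-15). Its sense CPM went the other way, 264 and 238 against 43.4 and 43.9 (2.52 ± 0.14). JSN1, a Puf-family RNA-binding protein gene, had 2.98 and 2.91 against 53.5 and 48.4 (-4.10 ± 0.38). IME4, the RNA methyltransferase gene needed for entry into meiosis, had 264 and 313 against 2063 and 2154 (-2.87 ± 0.15, adjusted p = 6.2e-24), with a sense difference of -0.16. VRP1 (-3.08), which overlaps OPI9 on the other strand, and GRE1 (-2.69), a desiccation stress gene, were the other large falls. All 5 falls were still called lower under K. lactis scaling (from -2.43 for JSN1 to -1.04 for GRE1). GRE1 sense levels were lower too, at 11.6 and 12.3 in Nab3-AID against 15.3 and 15.1 in OsTIR-AID on the log2(CPM + 1) scale. The part of wrong-strand reads in the GRE1 fall was not tested. Of members with higher antisense and lower sense levels, POP7, a subunit of RNase P and RNase MRP, had 129 and 98 antisense reads against 0 and 0 (at least 23.4-fold), and its sense CPM were 8.34 and 8.72 against 39.0 and 37.1 (-2.16, adjusted p = 1.5e-06).

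Nascent RNA gave large antisense differences for another set of leading genes. RKM4, a methyltransferase of ribosomal proteins, had antisense CPM of 82.7 and 70.6 in Nab3-AID against 0.422 and 0.608 in OsTIR-AID cells (log2 difference 7.18 ± 0.36 SE, adjusted p = 6.3e-26). RNH203, a subunit of RNase H2, had 184 and 127 antisense reads against 0 and 0 (at least 53.4-fold). NSL1, named above for steady-state RNA, had 426 and 361 against 2 and 0, a ratio of 203 with a counting interval of 55.9 to 1677. UPC2, a transcription factor of sterol genes, combined 3782 and 3407 antisense reads against 12 and 15 (7.09) with a sense difference of -2.92. SVL3 was again among the largest falls (-2.52 ± 0.23, adjusted p = 3.4e-15), with a sense difference of 2.72. MEP1, an ammonium permease gene, had an antisense difference of -2.26 and a sense difference of 1.52.

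In quiescent cells at day 8, 835 of 1855 members tested had higher antisense levels in rrp6-delta than in WT steady-state RNA and 26 had lower ones, where 27.7% of all genes tested were higher and 3.22% lower. The members' share higher was 45.0%, and their median difference 1.51 (log2), against 0.77 for all genes. With bounds the members' median was 1.39, and no bounds were set for all genes. Of 2143 convergent genes, 380 were higher. CMR1, a DNA-binding protein gene of the DNA damage response, lies on chromosome IV (174918 to 176486, plus strand), 286 bp before CLB3. Its rrp6-delta libraries held 85 and 111 antisense reads and its WT libraries none (at least 24.4-fold, adjusted p = 2.2e-08), with a sense difference of -0.05. KIP2 had 87 and 106 against 0 and 0 (at least 24.0-fold). LTV1, needed for export of the small ribosomal subunit, had 71 and 102 against 0 and 0 (at least 21.5-fold), and no catalogue transcript covers at least 50% of it. YSH1, the endonuclease of mRNA 3′ end cleavage, was at least 13.3-fold and RPL37A, of the large ribosomal subunit, at least 11.9-fold higher. In these leading genes the antisense reads were there in both rrp6-delta libraries and in neither WT library. The WT libraries were less deep, with 1361221 and 1466960 sense reads against 2418282 and 3754468 in rrp6-delta. The folds allow for depth, and the raw reads do not.

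IME4 had the highest antisense level per kilobase in WT quiescence and was among the largest falls relative to sense RNA. Under K. lactis scaling 1384 members were higher in this comparison and 0 lower, so none of the falls named here was called lower. IME4 antisense CPM were 364 and 329 in rrp6-delta against 1141 and 993 in WT (-1.62 ± 0.19, adjusted p = 1.3e-07, and -0.49, adjusted p = 0.146, under K. lactis scaling), while its sense difference did not pass the test (-1.69, adjusted p = 0.083). ALP1, an amino acid transporter gene, had antisense CPM of 121 and 109 against 288 and 281 (-1.31). PSP1 (-1.65), GRE1 (-1.55) and IRC13 (-1.35) were the other large falls. GRE1 sense levels were 12.9 and 12.8 in rrp6-delta against 14.7 and 14.5 in WT on the log2(CPM + 1) scale. INO1, the enzyme that makes inositol phosphate, lies on chromosome X (134332 to 135933, minus strand) and moved on both strands. Its antisense CPM were 38.6 and 40.4 against 4.71 and 8.45 (2.57 ± 0.36), and its sense CPM 154 and 147 against 517 and 672 (-1.98, adjusted p = 0.00245). SNU71, a protein of the U1 snRNP, had antisense CPM of 86.5 and 79.8 against 4.71 and 3.38 (4.37 ± 0.37, adjusted p = 6.1e-10) and a sense difference of -0.69 (adjusted p = 0.041).

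Nascent RNA of the same quiescent cells differed less between the genotypes. There 400 members of 1855 had higher and 18 lower antisense levels, against 12.5% and 1.89% of all genes tested, and the median difference was 0.37. Leaving out the first WT nascent library took the calls from 418 to 269, and K. lactis scaling gave 128 higher and 5 lower. DIM1, which dimethylates ribosomal RNA, had antisense CPM of 31.4 and 17.7 against 2.38 and 2.21 (3.41 ± 0.30, adjusted p = 1.2e-08). UPF3, a factor of nonsense-mediated decay, had 479 and 430 antisense reads against 45 and 54 (3.21 ± 0.28). AAR2 (3.30), TFC1 (3.04), PHO23 (2.98) and LTV1 (2.97) followed, and the groups did not overlap for any of them. SRO9, an RNA-binding protein gene, fell on the antisense strand, with CPM of 11.4 and 7.48 against 62.4 and 36.4 (-2.39 ± 0.30). The difference between the nascent and the steady-state effect of the deletion was tested as an interaction: the effect was smaller in nascent RNA for 397 members and larger for 8, where 11.8% and 1.11% of all genes tested moved these ways, with a median of -1.13. That count of 405 was 156 and 163 without the first and the second WT steady-state library, 264 without the second rrp6-delta steady-state library, 247 with DESeq2, and 1075, all smaller, under K. lactis scaling.

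In G1-arrested cells 1285 of 1875 members tested had higher antisense levels in rrp6-delta than in WT and 16 had lower ones, where 49.9% of all genes tested were higher and 3.25% lower. The median difference was 1.82 (log2) over the members and 1.00 over all genes. Of 2151 convergent genes 807 were higher, with a median of 0.67. EFM3, a lysine methyltransferase of elongation factor 2, lies on chromosome X (664000 to 665019, minus strand), 940 bp before RSF2. It had antisense CPM of 701 and 679 in rrp6-delta against 4.06 and 3.83 in WT (7.44 ± 0.17, adjusted p = 1.3e-125), and its sense difference was -0.30 (adjusted p = 0.076). GLO4, the mitochondrial glyoxalase II, lies on chromosome XV (407064 to 407921, plus strand), 503 bp before CUE5, and CUTs and NUTs cover it from the gap. Its antisense CPM were 807 and 682.5 against 10.1 and 8.00 (6.36 ± 0.16), and its sense CPM 12.8 and 14.8 against 24.0 and 25.6 (-0.85, adjusted p = 6.3e-05). In rrp6-delta GLO4 thus gave far more antisense than sense reads.

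ODC2, a mitochondrial carrier of dicarboxylates, had antisense CPM of 175 and 166 against 1.95 and 2.26 in G1 (6.33 ± 0.19), with a sense difference of -0.74. YSF3, a subunit of the splicing factor complex SF3b, had 84 and 73 antisense reads against 0 and 0 (at least 36.9-fold). SPG1 had 54 and 40 against 0 and 0 (at least 22.1-fold). SAM35, of the mitochondrial sorting and assembly machinery, lies on chromosome VIII (272627 to 273616, plus strand), 557 bp before STE12, the transcription factor of the pheromone response. Its antisense CPM were 280 and 288 against 7.31 and 6.26 (5.38 ± 0.16, adjusted p = 1.1e-96), and its sense CPM 10.9 and 10.99 against 40.4 and 43.5 (-1.93, adjusted p = 7.7e-12). Antisense levels thus passed the sense levels of SAM35 in rrp6-delta and not in WT. The 5 largest falls were small by comparison and included KAR2 (-1.15), the chaperone of the endoplasmic reticulum, PGI1 (-0.94), of glycolysis, and RPS8B (-0.92), of the small ribosomal subunit.

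The same direction held through the time course. Before the shift 1395 of 1875 members were higher in rrp6-delta and 22 lower (all genes 54.9% and 5.06%), and 2 h after it 1388 and 34 (all genes 55.5% and 5.76%). At 24 h there were 1300 and 89 (all genes 50.5% and 8.51%), and at 48 h 921 and 58 (all genes 31.2% and 6.54%). The medians of the members tested were 1.96, 1.94, 2.00 and 1.40 (log2). The effect at 48 h was tested against that before the shift: it was smaller for 361 members and larger for 85, where 17.7% and 5.07% of all genes tested moved so. Leaving out the first WT library at 48 h took these 446 calls to 251, subtraction of the strand leakage took them to 275, and K. lactis scaling turned the split to 373 larger and 110 smaller. By their column names, the libraries before the shift and at 2 h and 24 h are of batch 1, and the G1 libraries of batch 2. At 48 h the first rrp6-delta library is of batch 2, and the first WT library sums both batches. The part of batch in the 48 h differences was not tested. Over the 7 rrp6-delta comparisons, of which the 5 of the time course and the 2 in quiescence use separate libraries, 246 of 1821 members tested in all were higher in each (13.5%), 321 in 6 (17.6%), and 115 in none (6.32%). Of all 5720 genes tested in the 7, 6.50% were higher in each, 9.598% in 6 and 17.0% in none.

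Before the shift BFA1 had antisense CPM of 108 and 117 in rrp6-delta against 2.80 and 1.05 in WT (5.77 ± 0.21), and its sense CPM were 13.8 and 14.9 against 38.1 and 41.5 (-1.47, adjusted p = 1.5e-08). APE1, a vacuolar aminopeptidase, lies on chromosome XI (246138 to 247682, minus strand), 764 bp before GFA1. It had antisense CPM of 517.5 and 565 against 30.9 and 34.8 (4.05 ± 0.13, adjusted p = 1.5e-92) and sense CPM of 24.7 and 21.2 against 144 and 142 (-2.63, adjusted p = 1.7e-16). Both genes had less sense and more antisense RNA without Rrp6. PGM2, a phosphoglucomutase, had antisense CPM of 104 and 105 against 0.800 and 0.525 (7.21 ± 0.24), and its sense difference of 0.19 did not pass the test (adjusted p = 0.16).

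After the shift other genes led. At 2 h ODC2 had antisense CPM of 137 and 111 against 2.14 and 2.25 (5.81 ± 0.20) and sense CPM of 27.5 and 30.5 against 97.0 and 122 (-1.93, adjusted p = 3.9e-10). CDC20, the activator of the anaphase-promoting complex, had 89 and 45 antisense reads against 2 and 0 at 2 h, a ratio of 91.4 with a counting interval of 24.8 to 762, and a sense difference of -0.23. MLS1, the malate synthase, was lower on both strands in rrp6-delta at 2 h, by -2.36 antisense and -2.66 sense. At 24 h DYN2, a dynein light chain, had 192 and 169 antisense reads against 0 and 0 (at least 56.8-fold), and RNH203 139 and 106 against 0 and 0 (at least 38.6-fold). SRO9 had antisense CPM of 3.22 and 3.51 in rrp6-delta against 59.1 and 74.5 in WT at 24 h (-4.31 ± 0.20, adjusted p = 1.9e-58), with a sense difference of 1.82. At 48 h UPC2 had antisense CPM of 97.8 and 98.1 against 1.62 and 0.707 (6.18 ± 0.30).

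The members called in rrp6-delta and in Nab3-AID were set side by side, in comparisons that share no library. Of 1815 members tested in both steady-state comparisons in quiescence, 1374 were higher in Nab3-AID and 831 in rrp6-delta, and 774 were higher in both. These are 93.1% of those higher in rrp6-delta and 56.3% of those higher in Nab3-AID, where 75.7% of the 1815 were higher in Nab3-AID and 45.8% in rrp6-delta. Over all 5720 genes tested in both, the shares were 89.5% and 40.3%, with 63.5% and 28.6% higher. In nascent RNA, 387 members were higher in both, 97.0% of 399 and 24.97% of 1550, where 85.4% of the members were higher in Nab3-AID, and over all genes these shares were 95.5%, 16.2% and 75.8%. No overlap was tested. The difference was larger in Nab3-AID for 1388 of the 1815 members in steady-state RNA and for 1666 in nascent RNA. Across these genes, which are not independent replicates and share their depth and length, Pearson's r of the log2 differences was 0.478 in steady-state and 0.462 in nascent RNA. With rrp6-delta in G1, Nab3-AID in steady-state RNA shared 1025 members, 81.3% of 1260 and 74.2% of 1381, near the 75.6% of these members higher in Nab3-AID and the 69.0% higher in rrp6-delta. In separate libraries, quiescent rrp6-delta and rrp6-delta at 48 h after the shift shared 674 members, 81.2% of 830 and 73.8% of 913, where 50.1% and 45.6% of the members were higher at 48 h and in quiescence. Over all genes these shares were 72.7% and 64.7%.

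**Figure D3:**
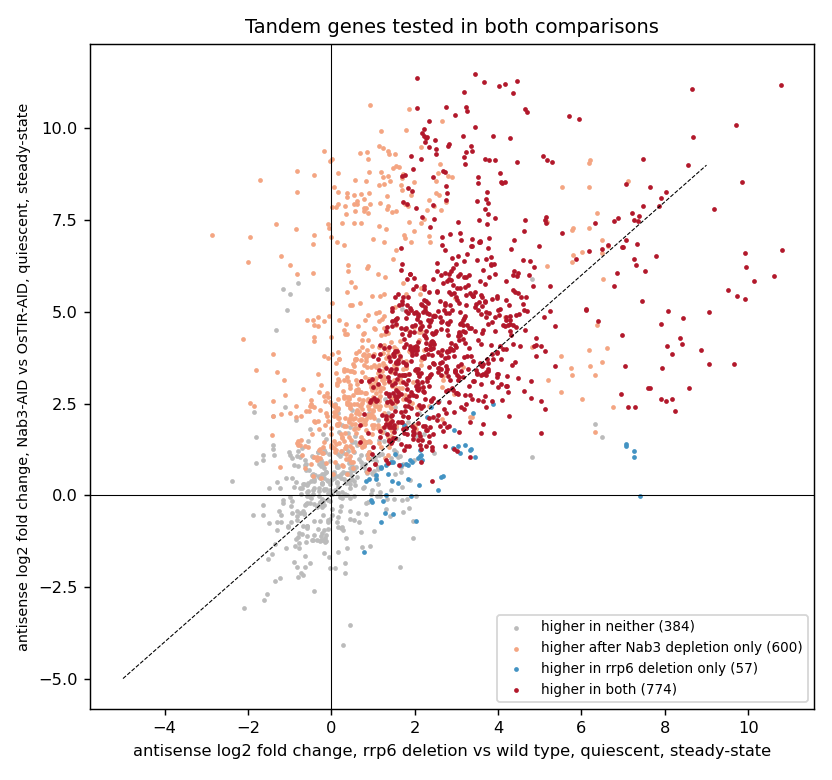
Antisense log2 difference of each tandem gene in quiescent steady-state RNA, rrp6-delta against WT (horizontal axis) and Nab3-AID against OsTIR-AID (vertical axis), with the line of equality dashed. Of 1815 genes, 774 were higher in both, 600 in Nab3-AID only, 57 in rrp6-delta only and 384 in neither, and the largest fitted values include genes with no read in a group.

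Among the members tested, the annotated class of the antisense transcript went with the size of these differences. Members that passed the filter on low counts only through the group where they are high had to differ. The medians include fitted values of members with no reads in a group. Members covered by a NUT were higher in Nab3-AID steady-state RNA in 661 of 783 cases tested (84.4%, median 3.70), and members under a CUT in 639 of 779 (82.0%). Members with no annotated antisense transcript at all were higher in 379 of 539 (70.3%, median 2.95), above the 63.5% of all genes tested. Members under a SUT or XUT but no NUT or CUT were higher in 34 of 72 (47.2%) and lower in 10. Antisense reads per 100 sense reads over NUT-covered members were 37.5 and 41.7 in Nab3-AID and 2.53 and 2.43 in OsTIR-AID steady-state RNA. Over members without any annotated antisense transcript they were 13.04 and 13.9 against 1.89 and 1.82. So the libraries of the groups lay apart with and without an annotated transcript.

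The same classes were counted after loss of Rrp6, and differences between classes were not tested. In G1, 725 of 784 members under a NUT were higher in rrp6-delta and none lower (92.5%, median 2.67), against 211 of 544 without any annotated antisense transcript (38.8%, median 0.84). In quiescent steady-state RNA these shares were 56.2% and 34.9%. Of all genes tested 49.9% were higher in G1 and 27.7% in quiescence. The antisense reads per 100 sense reads over NUT-covered members were 16.4 and 16.8 in rrp6-delta against 2.29 and 2.28 in WT in G1, and 11.4 and 11.5 against 2.75 and 2.98 in quiescence. Over members without an annotated antisense transcript they were 1.32 and 1.33 against 0.715 and 0.707 in G1, and 5.04 and 5.18 against 2.00 and 2.03 in quiescence. The catalogues were made from other experiments, and their growth conditions were not compared here. Where the covering transcript began in the gap, 91.2% of members were higher in rrp6-delta in G1, against 83.6% where it began beyond the gap and 81.5% where it began inside or upstream of the gene. For Nab3-AID in steady-state RNA these shares were 78.0%, 79.7% and 80.0%. Members with a gap of up to 250 bp were higher in rrp6-delta in G1 in 76.1%, with 251 to 500 bp in 69.0% and with 501 to 1000 bp in 62.6%. From G1 to quiescence in WT steady-state RNA the shares were 20.5%, 33.6% and 40.1%, beside 36.7% of all genes tested.

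**Figure D4:**
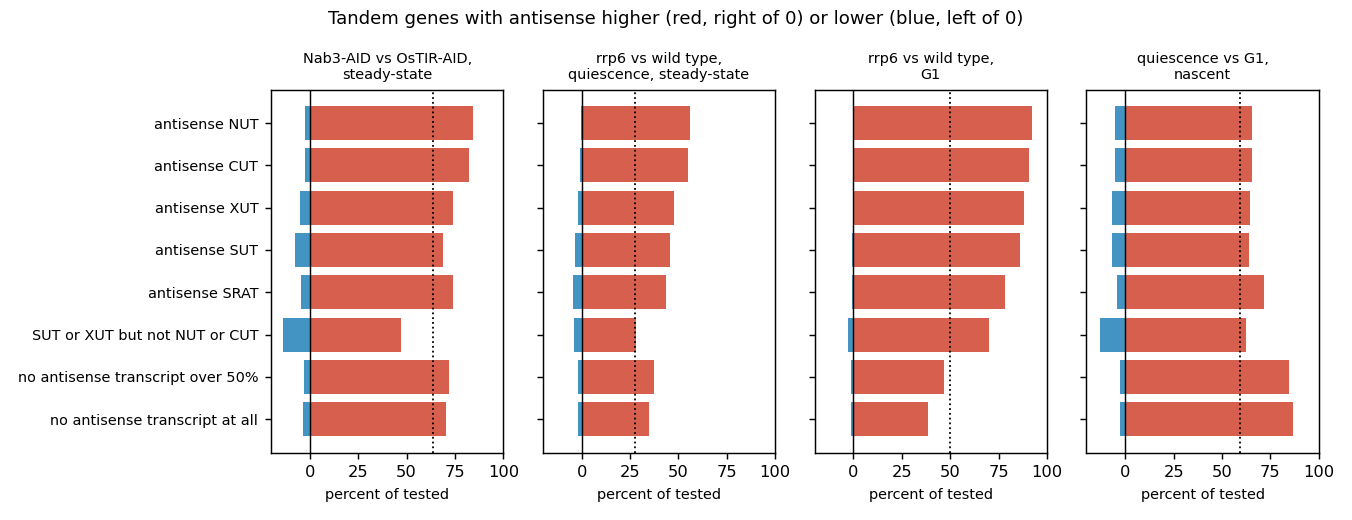
Percent of tandem genes tested with higher and lower antisense levels by class of the annotated antisense transcript, in 4 comparisons, with a dotted line at the percent of all genes tested. NUT-covered genes reach 92.5% higher in rrp6-delta in G1. In WT nascent RNA of quiescence against G1, whose direction turns under K. lactis scaling, genes without an annotated transcript reach 86.8%. Genes that passed the filter on low counts only through the group where they are high had to differ.

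In WT cells of the Ovation set, antisense levels relative to sense RNA were higher in quiescence than in G1. In steady-state RNA 464 of 1398 members tested were higher and 124 lower, where 36.7% of all genes tested were higher and 12.2% lower, so the members' 33.2% lay below the share of all genes. Leaving out the first quiescent steady-state library took the calls from 588 to 366. In nascent RNA 1029 were higher and 62 lower (73.6% and 4.43%), against 59.3% and 8.05% of all genes, with a median of 2.33 against 1.69. Under K. lactis scaling the nascent split turned to 30 higher and 800 lower, and the steady-state split stayed at 306 higher and 103 lower. The ratio of antisense to sense reads within a gene, in which any library scaling cancels, was higher in quiescence for 886 of 1389 members in nascent RNA and lower for 120, against 53.3% and 13% of all genes tested. In steady-state RNA it was higher for 481 and lower for 201, against 35.6% and 15.9%. Members without any annotated antisense transcript were higher in nascent RNA in 277 of 319 cases tested (86.8%, median 3.58), and those with a covering transcript in 66.1%. The filter on low counts left out 544 members of this set. Members that passed it only through quiescent nascent RNA had to differ, so these shares cannot tell the classes apart.

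PIN4, a gene of cell cycle progression and the DNA damage response, had 215 and 142 antisense reads in quiescent and none in G1 steady-state RNA (at least 187-fold, adjusted p = 1.8e-08), with a sense difference of -0.59 (adjusted p = 0.078). MSN2, a stress transcription factor, had 74 and 40 against 0 and 0 (at least 59.6-fold) with a sense difference of 2.09. ALP1 had antisense CPM of 176 and 171 against 0.229 and 1.12 (7.96 ± 0.48), and its sense difference was 3.90. SVL3 had 202 and 107 antisense reads against 1 and 2, a ratio of 162 with a counting interval of 54.8 to 788, and its sense CPM were 76.1 and 46.5 against 425 and 440 (-2.81, adjusted p = 1.9e-05). ADY2, an acetate transporter gene, did the opposite: antisense CPM of 0.888 and 0.885 in quiescence against 26.8 and 38.2 in G1 (-5.17 ± 0.49), and sense CPM of 7992 and 10450 against 2.98 and 5.80 (11.03). Its dominant strand thus differed between the states.

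Several members with large falls lie before a gene of the pheromone response, which alpha factor induces. In nascent RNA ATP3, a subunit of the mitochondrial ATP synthase that is followed by FIG1, had 1 and 0 antisense reads in quiescence against 188 and 155 in G1, a ratio of 280 in favour of G1 with a counting interval of 49.9 to 11100. AEP1, followed by KAR5, had 5 and 4 against 208 and 239 (-5.28 ± 0.56). SAM35, followed by STE12, had antisense CPM of 0.630 and 0.539 against 14.0 and 16.2 (-4.66 ± 0.53, adjusted p = 5.9e-07). In steady-state RNA RNQ1, followed by FUS1, had 0 and 1 antisense reads against 55 and 85 (ratio 89.2, interval 15.8 to 3548), and SET2, followed by ASG7, was at least 13.8-fold lower in quiescence. These neighbours were read off after the values were seen, and no test was made of them.

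Relative to sense RNA, pheromone genes that are members themselves moved the other way. PRM1, which acts in the fusion of mating cells, had antisense CPM of 38.4 and 25.1 in quiescent nascent RNA against 0.637 and 0.786 in G1 (5.44 ± 0.57, adjusted p = 1.7e-07), and sense CPM of 8.51 and 15.1 against 2592 and 2705 (-7.80). FUS3, the kinase of the mating pathway, lies on chromosome II (192451 to 193512, plus strand), 609 bp before ACH1. It had 47 and 96 antisense reads against 0 and 0 (at least 58.4-fold, adjusted p = 7.9e-07) and sense CPM of 61.6 and 58.2 against 752 and 753 (-3.65). ASG7 (antisense 5.04, sense -8.51) and PRM2 (antisense 5.61, sense -6.79) had the same combination, and so did GIC2, an effector of the GTPase Cdc42, with a sense difference of -7.38. Of the 17 pheromone genes among the members, 16 were lower on the sense strand in nascent RNA, and of 16 tested on the antisense strand 15 were higher; under K. lactis scaling 1 was higher and 6 lower. The ratio of antisense to sense reads, which no library scaling moves, was higher in all 16. Alpha factor induces such genes in G1, and a lower sense level alone raises this ratio. It therefore cannot show a rise of the antisense RNA itself. Of all genes tested 33.7% were lower on the sense strand, 59.3% higher on the antisense strand and 53.3% higher in the ratio.

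Through the diauxic shift in WT cells the antisense levels of many members moved with their sense levels. Wrong-strand reads, which move with sense reads, came to 0.274 and 0.455 per 100 sense reads 2 h before and 0.368 and 0.482 at 2 h after the shift. All antisense reads over the members came to 1.10 and 1.27, and 1.56 and 1.73. The part of wrong-strand reads in the shared direction, here and in the genes named below, was not tested. From 2 h before to 2 h after the shift 421 of 1875 members rose and 260 fell, where 23.1% of all genes tested rose and 17.4% fell. K. lactis scaling turned this to 180 and 619. Of the 421 that rose, 263 also rose on the sense strand and 88 fell; of 258 that fell and were tested on both strands, 186 fell and 55 rose, where 42.7% of the 1872 members tested on both strands rose and 39.7% fell on the sense strand. From 2 h to 24 h 173 rose and 143 fell (all genes 11.7% and 8.31%), and K. lactis scaling turned this to 28 and 973. These 316 calls were 204 and 202 without the first and the second WT library at 24 h, and without the first at 2 h they were 125 higher and 130 lower. From 24 h to 48 h 368 rose and 60 fell (all genes 22% and 7.25%), against 52 and 479 under K. lactis scaling and 232 calls without the first library at 48 h.

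MTH1, a co-repressor of hexose transporter genes, had antisense CPM of 226 and 231 at 2 h after the shift against 3.73 and 3.15 before it (6.03 ± 0.18, adjusted p = 2.7e-100), and a sense difference of 0.56. MIG2, a repressor active in glucose, changed strands: antisense CPM went from 2.40 and 1.93 to 46.1 and 42.7 (4.33 ± 0.22) and sense CPM from 57.5 and 48.3 to 2.32 and 2.77 (-4.37, adjusted p = 7.0e-16). MLS1 rose on both strands, by 5.03 on the antisense and 12.90 on the sense strand. RPS9B, of the small ribosomal subunit, fell on both, with 0 and 0 antisense reads after the shift against 47 and 53 before (at least 28.7-fold lower, sense -4.90). Between 2 h and 24 h SRO9 had the largest rise, from antisense CPM of 3.03 and 2.08 to 59.1 and 74.5 (4.70 ± 0.22), with a sense difference of 0.14. Between 24 h and 48 h SVL3 went from antisense CPM of 4.20 and 3.86 to 108 and 100.4 (4.70 ± 0.24, adjusted p = 1.5e-48) while its sense CPM went from 167 and 180 to 50.9 and 54.4 (-1.74, adjusted p = 1.1e-13).

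Nascent and steady-state RNA of WT cells of the Ovation set were also compared. In quiescence 630 of 1398 members had higher antisense levels in nascent RNA and 20 lower, where 27.1% of all genes tested were higher and 7.21% lower, with a median of 1.63. The calls numbered 362 without the first quiescent nascent library, 408 and 222 without the first and the second quiescent steady-state library, and 329 with DESeq2, and K. lactis scaling turned the split to 4 higher and 182 lower. ADE8, of purine synthesis, had 74 and 71 antisense reads in nascent RNA against 0 and 0 (at least 13.2-fold). OM14, of the mitochondrial outer membrane, was lower in nascent RNA (-2.38). In G1 no member was higher and only LOA1, an acyltransferase gene of lipid synthesis, was lower (antisense CPM 3.18 and 3.85 against 10.3 and 19.0, log2 difference -2.05, edgeR adjusted p = 0.049), where 0.0215% of all genes tested were higher and 1.59% lower. At an unadjusted p under 0.05 the G1 comparison had 108 members, DESeq2 called 2, and with K. lactis scaling 917 members were called higher.

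How sense levels went with antisense calls differed between the comparisons. In Nab3-AID steady-state RNA, sense levels were higher in 26.1% and lower in 36.5% of 1401 such members, against 26.0% and 38.0% of all 1858 members tested on both strands. In rrp6-delta G1 cells they were higher in 26.8% and lower in 25.1% of 1283, against 23.8% and 29.2% of 1872. In quiescent rrp6-delta steady-state RNA they were higher in 5.27% and lower in 4.79% of 835, against 4.15% and 7.55% of 1854. In WT nascent RNA from G1 to quiescence they were higher in 25.3% and lower in 36.3% of 1025, against 28.6% and 33.0% of 1389. In the WT time steps they were higher in 62.5%, 44.2% and 50.3% of the members with higher antisense levels at 2 h, 24 h and 48 h after the shift, against 42.7%, 35.3% and 32.6% of the members tested on both strands. Of members with lower antisense levels, 13 of 26 had lower sense levels in quiescent rrp6-delta steady-state RNA, 11 of 16 in rrp6-delta in G1 and 33 of 62 in Nab3-AID steady-state RNA. In WT quiescence against G1 only 5 of 61 did in nascent RNA, where 57.4% had higher ones, and 26.8% of 123 did in steady-state RNA, against 38.9% of 1389. The differences between these shares were not tested.

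**Figure D5:**
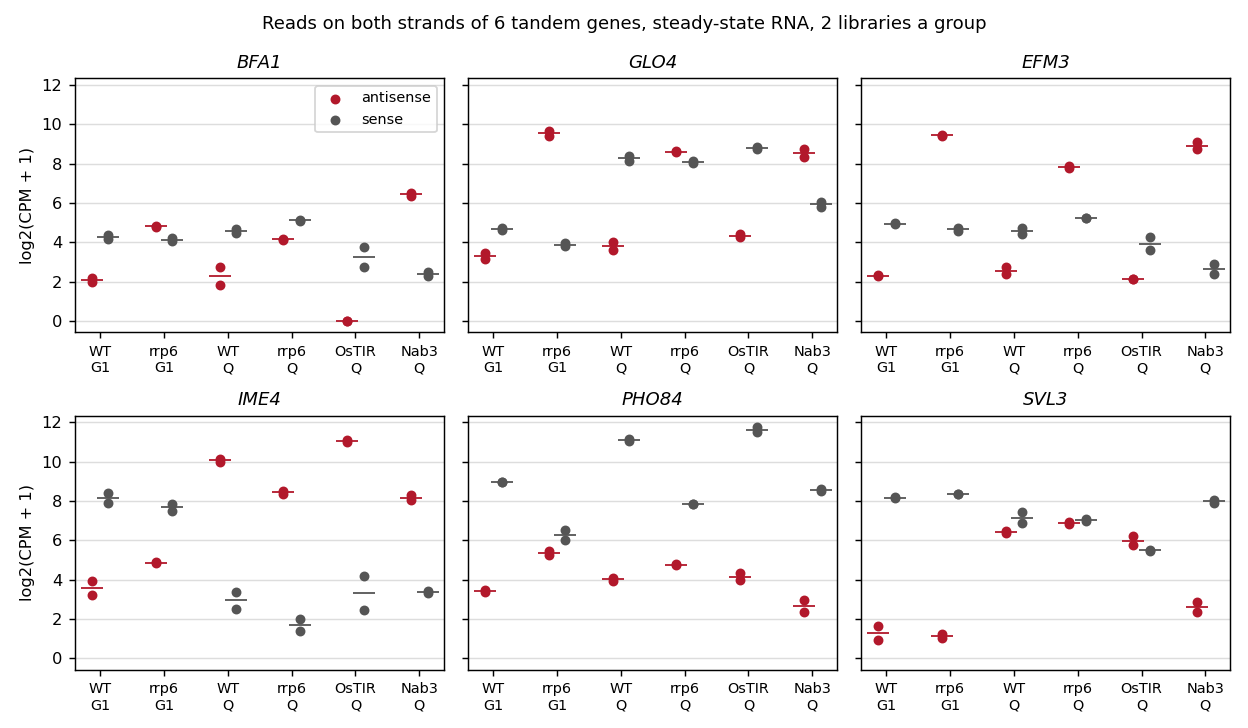
Antisense and sense levels, log2(CPM + 1), of BFA1, GLO4, EFM3, IME4, PHO84 and SVL3 in steady-state RNA of WT and rrp6-delta G1 cells, WT and rrp6-delta quiescent cells, and OsTIR-AID and Nab3-AID quiescent cells, with a point per library and a dash at the mean. BFA1, GLO4 and EFM3 gain antisense RNA in rrp6-delta, IME4 changes its dominant strand between G1 and quiescence, and SVL3 antisense falls in Nab3-AID.

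Within a gene the ratio of antisense to sense reads was tested in the same way, so that a member whose strands moved together was not called. After Nab3 depletion it was higher for 1332 of 1858 members in steady-state RNA and lower for 52 (56.9% and 8.01% of all genes tested), and higher for 1545 and lower for 77 in nascent RNA (70.4% and 11.2%). After loss of Rrp6 in quiescence it was higher for 732 of 1854 and lower for 15 in steady-state RNA (24.1% and 2.62% of all genes), and higher for 292 and lower for 24 in nascent RNA (9.07% and 2.42%). In G1 it was higher for 1191 of 1872 and lower for 19 (44.9% and 5.63%). In the time course it was higher in rrp6-delta for 1315 ahead of the shift and lower for 36 (49.8% and 7.3%), with 1299 and 34 at 2 h (50.9% and 7.28%), 1253 and 80 at 24 h (48.8% and 10%) and 848 and 40 at 48 h (27.8% and 5.16%). In WT cells the step to 2 h past the shift gave 320 higher and 217 lower (16.6% and 15%), the step to 24 h gave 131 and 104 (8.28% and 6.42%), and the step to 48 h gave 311 and 43 (17.4% and 4.77%). Nascent against steady-state RNA of quiescent cells gave 492 of 1389 higher and 32 lower (23.6% and 8.12%), and in G1 edgeR called none in either direction (134 at an unadjusted p under 0.05, and 3 with no filter on low counts).

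Some of these ratio counts rested on single libraries. The 747 calls for quiescent rrp6-delta steady-state RNA were 467 and 482 without the first and the second WT library. The 316 in nascent RNA were 192 and 154 without the first and the second rrp6-delta library, 131 without the first WT library and 139 with DESeq2. At 48 h the 888 were 503 without the first WT library, which also took the 354 of the WT step to 48 h to 222. The 235 of the WT step to 24 h were 145 without the second WT library at 24 h and 139 with DESeq2. The 524 for nascent against steady-state RNA in quiescence were 348 without the first nascent library, and 321 and 282 without the first and the second steady-state library.

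Groups of genes with a shared function were followed through their members on both strands. Of 49 ribosomal protein genes tested, 39 had higher antisense levels in Nab3-AID steady-state RNA and none lower (median 4.65), and in quiescent rrp6-delta steady-state RNA 16 of 48 were higher and 1 lower. In rrp6-delta G1 cells 9 of 53 were higher and 4 lower (median -0.02, and 0.07 under K. lactis scaling). Of all genes tested there, 49.9% were higher and 3.25% lower, with a median of 1.00. From before to after the shift in WT cells, 43 of 53 fell on the antisense and 52 on the sense strand, and the ratio of antisense to sense reads rose in 16. Of all genes tested, 17.4% fell antisense, 36.7% fell sense and 16.6% rose in the ratio. The part of wrong-strand reads in this antisense fall was not tested. For ribosome biogenesis factors, 28 of 29 were higher in Nab3-AID (median 4.62) and 18 of 31 in quiescent rrp6-delta steady-state RNA (median 2.44), with none lower in either. Genes of G1/S and DNA replication were higher in 20 of 22 in Nab3-AID. The Nab3-AID and quiescent rrp6-delta shares stand beside 63.5% and 27.7% of all genes tested.

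Stationary-phase genes were counted in the same way. In Nab3-AID steady-state RNA 9 of 19 had higher and 8 lower antisense levels (11 and 2 under K. lactis scaling), and 14 were lower on the sense strand (4 lower and 6 higher under K. lactis scaling). In rrp6-delta G1 cells 17 of 19 were higher and none lower (median 2.73). Of all genes tested, 63.5% were higher and 5.9% lower in Nab3-AID, 49.9% and 3.25% in rrp6-delta G1 cells. After the shift in WT cells 16 of 19 rose on the antisense and all 19 on the sense strand, and the antisense to sense ratio fell in 10, where 23.1% of all genes rose antisense, 40.8% rose sense and 15% fell in the ratio. The 11 genes of gluconeogenesis and the glyoxylate cycle all rose on both strands after the shift, with medians of 2.23 antisense and 7.73 sense, and the ratio fell in 8. Under K. lactis scaling 8 rose and 1 fell on the antisense strand and 10 rose on the sense strand. The part of wrong-strand reads in these antisense rises was not tested. In WT nascent RNA from G1 to quiescence, 3 of these 11 were higher on the antisense strand and 4 lower, while all 11 were higher on the sense strand (0 higher and 9 lower antisense, 6 higher and 3 lower sense, under K. lactis scaling), beside 59.3%, 8.05% and 28.6% of all genes in this order. The phosphate regulon had 10 of 12 genes with higher antisense and 8 of 13 with lower sense levels in rrp6-delta G1 cells, where 23.3% of all genes were lower on the sense strand. All 8 iron uptake genes had higher antisense levels there, and 4 of them lower sense levels (1 higher and 2 lower under K. lactis scaling). Of genes of meiosis and sporulation, 20 of 23 were higher on the antisense strand in Nab3-AID and 3 lower.

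Of the members, 10 have antisense RNAs that are well documented. All 10 were higher in rrp6-delta in G1 (49.9% of all genes), and in quiescent rrp6-delta steady-state RNA 3 were higher, near the 27.7% of all genes (PHO84, CDC28 and ARO10) and 2 lower (IME4 and HMS2; under K. lactis scaling neither was called, with IME4 at -0.49 and HMS2 turned to 0.53). In Nab3-AID steady-state RNA 4 were higher, below the 63.5% of all genes (ZIP2, PHO5, KCS1 and CDC28) and 3 lower (PHO84, IME4 and GAL10, with PHO84 at 0.13 and GAL10 at 1.24 under K. lactis scaling). PHO84, the high-affinity phosphate transporter, lies on chromosome XIII (24037 to 25800, minus strand), 353 bp before TUB3. In G1 its antisense CPM were 37.4 and 43.3 in rrp6-delta against 9.91 and 9.22 in WT (2.07 ± 0.17, adjusted p = 8.5e-26), and its sense CPM 91.8 and 63.97 against 498.5 and 497.3 (-2.67, adjusted p = 1.7e-12). In quiescent rrp6-delta steady-state RNA the PHO84 antisense difference was 0.79 (adjusted p = 0.045) and the sense difference -3.26 (adjusted p = 0.0042). In Nab3-AID both PHO84 strands were lower, by -1.56 antisense and -3.05 sense. PHO5, the secreted acid phosphatase, had 2.32 antisense and -1.44 sense in rrp6-delta in G1. KCS1, an inositol phosphate kinase, had 558 and 461 antisense reads in Nab3-AID against 4 and 10 in OsTIR-AID (4.50) and a sense difference of -1.05.

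IME4 changed strands between the states. In WT steady-state RNA its antisense CPM were 8.45 and 14.1 in G1 and 1141 and 993 in quiescence, and its sense CPM 333 and 239 in G1 and 4.71 and 9.30 in quiescence. Those levels come from different fits and are set side by side without a test. Within the Ovation set IME4 nascent antisense CPM were 430 and 344 in quiescence against 39.5 and 33.9 in G1 (3.40, adjusted p = 7.1e-09; -1.10 under K. lactis scaling), and sense CPM 0.946 and 0.628 against 371 and 426 (-8.97). Annotated antisense transcripts cover only 10.6% of IME4. In nascent RNA from G1 to quiescence, 8 of the 10 documented genes were higher on the antisense strand, and PHO5 and ARO10 were lower. Of all genes tested, 59.3% were higher and 8.05% lower. For the 8 documented genes that were higher, PHO84, IME4, ZIP2, GAL10, KCS1, CDC28, HMS2 and SUR7, K. lactis scaling gave negative differences, from -0.50 for CDC28 to -2.62 for SUR7.

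Per kilobase of gene, the members with the highest antisense levels differed between the states. In WT G1 steady-state RNA BUD30 (181 and 200.5 CPM per kb), OPI6 (192 and 168) and OPI9 (158 and 122) led, and all have a gene on the other strand, RPC53, PMT1 and VRP1 in this order. APE1 led among members with no such gene (73.9 and 64.1). In WT quiescence IME4 led with 633 and 551 CPM per kb, followed by GRE1 (319 and 197), IRC13 (281 and 223) and HMS2 (182 and 179). GRE1 sense levels there were 14.7 and 14.5 on the log2(CPM + 1) scale. Wrong-strand reads in these libraries came to 0.424 and 0.403 per 100 sense reads, and their part in the GRE1 antisense level was not tested. In rrp6-delta quiescence GLO4 led with 466 and 445, followed by PHO23 (370.2 and 258), NIS1 (260.1 and 205) and EFM3 (215.5 and 229). IME4 was at 202 and 182 there. GLO4, NIS1 and EFM3 had 17.6 and 12.8, 18.5 and 20.02, and 5.54 and 4.14 CPM per kb in WT quiescence.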

How the data were processed

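Stranded RNA libraries of 44 samples were analysed from tables of read counts that the authors deposited. Reads were counted per gene on the same and on the opposite strand. There were 46 columns, and the 2 columns of each of 2 samples were summed. The names of the summed columns differ only in the batch and do not say whether they are runs of the same library. UMI-tools, STAR, SAMtools and HTSeq and the build sacCer3 (R64) are named in the submitters' processing notes; their versions are not given in the sources used here. The mRNA tables hold 6600 S. cerevisiae genes, 5076 K. lactis genes and 12 lines that are no features; reads without a unique alignment made up 7.99% to 62.5% of a sample's total, and opposite-strand reads on no gene 35.6% to 88.0%, and neither line entered library sizes or tests. The strand column was turned on all 6600 lines of the opposite-strand table, and each gene's own strand was used. Coordinates are those of the deposited tables. No genome sequence was used.

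Antisense counts were tested gene by gene with edgeR 4.0.16 in R 4.3.3 (quasi-likelihood F-test, robust, filterByExpr, Benjamini-Hochberg over all genes tested, threshold 0.05), with library sizes and TMM factors from the sense counts, in 4 fits (the Ovation set, the quiescent rrp6-delta set, the time course and the auxin set). The SE is the log2 difference divided by the square root of F. The antisense to sense ratio was tested with both strands as columns and the library as a block. The 16 comparisons and 2 interactions, an exact permutation test on sums per library, and the alternatives are reported in full or by count. The alternatives were DESeq2 1.42.0, K. lactis scaling, no filter on low counts, a gap of up to 500 bp and the neighbour from all rows. Further ones were no reading frame on the other strand, leakage subtracted, batch 1 alone for the 2 summed samples, replicate block, and leaving out each replicate. Leakage is the 10th percentile of antisense per sense reads over the 200 genes with most sense reads. The scripts were tested on simulated data with known changes.

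Members and gene lists were chosen with earlier results of these data known. Genes are named per comparison by a rule: the 10 largest rises and 5 largest falls with at least 50 antisense reads in the higher group and no overlap of the groups, the 5 members with the largest opposite changes of both strands, the 10 highest levels per kb in each of 3 groups, the members at the edge of the gap limit, and genes with documented antisense RNA. A fold against no reads uses a floor of 3 reads over the group, and ratios against 1 to 3 reads carry an exact 95% interval; both cover counting error only. Replicate libraries differed by a chi-square per gene of 1.33 to 10.97, above sampling noise. The 2 columns summed for a sample differed by 0.774 for the second rrp6-delta quiescent steady-state library. They differed by 2.99 for the first WT library at 48 h, where the replicates of that group differed by 1.67. Same strain numbers pair samples within the WT comparisons, where deviations of same-numbered samples correlated at -0.018 to 0.256. Samples of rrp6-delta and WT, or of Nab3-AID and OsTIR-AID, share only a replicate number, and their deviations correlated at -0.018 to 0.387. The largest value was that of rrp6-delta against WT in quiescent nascent RNA, where the replicate block gave 581 calls in place of 418.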

Additional observations from a re-analysis of the deposited data

Results flagged for a closer look

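The effect of the RRP6 deletion on antisense levels differed between nascent and steady-state RNA of quiescent cells for 405 of 1855 members by the interaction test (edgeR, adjusted p below 0.05). It was smaller in nascent RNA for 397 and larger for 8, where 11.8% and 1.11% of all genes tested moved these ways. It differed between 48 h after and 2 h before the diauxic shift for 446 members, smaller at 48 h for 361 and larger for 85, and this split turned under K. lactis scaling to 110 and 373. The 48 h groups mix batch 1 and batch 2, and the groups before the shift hold batch 1 only.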

How the results depend on the processing

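Library scaling had the largest effect. Scaled to K. lactis reads, the members called numbered 830 for quiescence against G1 in nascent RNA (30 higher, 800 lower), 917 for nascent against steady-state RNA in G1 (917 higher, 0 lower) and 186 in quiescence (4 and 182), 799 from before to 2 h past the shift (180 and 619), 1001 from 2 h to 24 h (28 and 973), 531 from 24 h to 48 h (52 and 479), and 483 for the interaction at 48 h (373 and 110). These 7 splits turned. Under the same scaling the calls moved to 1384 for rrp6-delta in quiescent steady-state RNA, 133 in quiescent nascent RNA, and 1075 for the interaction of nascent and steady-state RNA. In nascent RNA of quiescent against G1 cells the antisense differences of PHO84 (-1.37), IME4 (-1.10), ZIP2 (-1.90), GAL10 (-2.10), KCS1 (-1.41), CDC28 (-0.50), HMS2 (-1.78) and SUR7 (-2.62) turned, as did HMS2 in quiescent rrp6-delta (0.53), and PHO84 (0.13) and GAL10 (1.24) after Nab3 depletion in steady-state RNA.

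DESeq2 gave 2 calls for nascent against steady-state RNA in G1, 329 in quiescence and 247 for the interaction there. For the antisense to sense ratio it gave 139 calls for rrp6-delta in quiescent nascent RNA and 139 from 2 h to 24 h. With strand leakage subtracted, nascent against steady-state RNA in G1 had 0 calls and the interaction at 48 h 275. A gap of up to 500 bp also gave 0 in G1, and no filter on low counts gave 3 for the ratio there. Without members that have a reading frame on the other strand, the summed share from 2 h to 24 h changed by -0.020 (log2). The replicate block moved no count of calls by over 1.5 times: quiescence against G1 in steady-state RNA had 620 calls with it.

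Leaving out 1 library gave 366 to 556 calls for quiescence against G1 in steady-state RNA, 0 to 1 for nascent against steady-state RNA in G1 and 222 to 863 in quiescence, 269 to 447 for rrp6-delta in quiescent nascent RNA, 202 to 255 from 2 h to 24 h, 232 to 373 from 24 h to 48 h, 156 to 458 for the interaction in quiescence and 251 to 447 for that at 48 h. For the antisense to sense ratio it gave 282 to 655 for nascent against steady-state RNA in quiescence, 467 to 595 and 131 to 322 for rrp6-delta in quiescent steady-state and nascent RNA, 503 to 786 at 48 h, 145 to 186 from 2 h to 24 h and 222 to 292 from 24 h to 48 h. The summed tandem against convergent difference of quiescence and G1 in steady-state RNA ranged from -0.060 to 0.31 (log2), the summed share from 2 h to 24 h from -0.033 to 0.12, and TUB4 from 24 h to 48 h from -2.93, without the first WT library at 48 h, to 6.07. The cause of these shifts was not tested. With 2 libraries a group, members with few antisense reads have wide errors, and 544 members of the Ovation set had too few reads to be tested.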
